A study of Mus musculus with 42 samples.

Results

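The Frizzled receptors are 10 genes, Fzd1 to Fzd10, of the 20462 genes listed for mouse colon crypts and colon tumors, and they were found in the tables by their symbols. All 10 are listed in each of the 9 tables of the series. Frizzled proteins are cell-surface receptors with 7 membrane-spanning segments, and Wnt ligands bind their extracellular cysteine-rich domain. With the coreceptors Lrp5 and Lrp6 they activate Dishevelled and stabilize beta-catenin, the pathway on which colonic stem cells depend. Without these coreceptors some members, Fzd3 and Fzd6 among them, act in planar cell polarity, the alignment of cells within an epithelial sheet. The ligases Znrf3 and Rnf43 remove Frizzled proteins from the cell surface, and R-spondins with their Lgr receptors counter that removal.

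The study compared crypts and tumors of mice with altered Mtg16, a corepressor of transcription that binds E proteins, with those of wild-type (WT) littermates. Mtg16-/- mice are labelled Mtg16-null, and Mtg16 T/T mice were homozygous for P209T, a point mutation that weakens binding to E proteins. The 2 colonies were bred separately on a C57/BL6 background, each with its own WT littermates, and all mice were 8 weeks old or older. Crypts freed by chelation were sequenced from both ends of the colon, proximal crypts from 5 cm at the cecal end and distal crypts from 5 cm at the anal end. Proximal crypts gave 2 libraries for each of the 4 kinds of mice. Distal crypts gave 4 libraries from Mtg16-/- mice, 4 from their WT littermates, 4 from T/T mice and 3 from theirs. Distal crypts were also taken after 1 course of dextran sulfate sodium (DSS), which injures the colon epithelium, given at 2% in drinking water for 5 days and followed by 4 days of water. These gave 4 libraries from Mtg16-/- mice and 3 from each of the other kinds. Whole tumors of the distal colon, 3 from T/T mice and 3 from their WT littermates, followed the carcinogen azoxymethane (10 mg/kg) and 3 cycles of 3% DSS for 4 days and water for 16 days. The 42 libraries form 14 groups, and p-values measure the spread between these libraries, since the labels do not tie a library to a mouse.

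The 38 libraries with recovered whole reads held 32231389 to 74661922 reads assigned to genes. Cbfa2t3, the official symbol of Mtg16, had 9.69 to 24.0 CPM (a gene's count over the total of its library, scaled to the same total in each library) in distal Mtg16-/- crypts and 23.0 to 39.0 CPM in their WT littermates, ranges that overlapped (adjusted p = 0.303, limma). Without distal Mtg16-/- replicate 2 the mutant range was 9.69 to 15.2 CPM and the adjusted p 0.0358 (limma). After DSS it had 7.48 to 11.2 and 33.1 to 46.5 CPM (adjusted p = 0.00292, limma), and in proximal crypts 13.0 and 21.4 against 34.9 and 63.9 CPM (0.445). In T/T mice, whose allele is a point mutation, it had 37.7 to 53.2 CPM in distal crypts against 23.6 to 25.2 CPM in WT (adjusted p = 0.253, limma). Epcam, a marker of epithelium, was at 1588 CPM or more in proximal crypts. A single library went against its segment label. The library labelled distal Mtg16-/- replicate 2 correlated with the mean of the proximal WT crypts at 0.988 and with that of the distal WT crypts at 0.932 (Pearson, all genes), whereas the other 27 crypt libraries labelled distal were closer to distal crypts and the 8 labelled proximal to proximal crypts. Hoxd13, a gene of the hindmost body, was listed at 0 there and in every proximal library, against 74.6 to 149 CPM in the other 14 distal libraries before DSS. These segment genes were chosen after their values were seen. The tests that use this library are given with and without it, and the descriptions over groups of libraries that move without it are given both ways too. The library names carry a code prefix that the labels do not explain. Prefix 4149 alone holds both segments of WT mice, and DSS and tumor libraries have prefixes of their own, so that prefix and treatment cannot be told apart there.

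The coding sequences show what the members share and where they part. Each of the 9 printed here holds 1 in-frame match to lysine, threonine, any 3 residues and tryptophan, the motif behind the last membrane segment that Dishevelled binds. The codons of the 3 fixed residues are in capitals (GRCm38, GENCODE vM21, coding strand).
Fzd1: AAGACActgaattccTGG
Fzd2: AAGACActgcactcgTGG
Fzd7: AAGACCctgcagtcaTGG
Fzd4: AAAACTcttcacacgTGG
Fzd5: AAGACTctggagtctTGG
Fzd9: AAGACTtttcagactTGG
Fzd10: AAGACCctgcagtccTGG
Fzd3: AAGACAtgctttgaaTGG
Fzd6: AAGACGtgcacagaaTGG
The motif ended 17 codons before the end of the protein in Fzd1, Fzd2 and Fzd7. It lay 33 codons before the end in Fzd4, and 54, 55 and 50 codons before it in Fzd9, Fzd5 and Fzd10. Fzd3 and Fzd6 had much longer tails, of 159 and 206 codons.

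E proteins bind the E-box, CANNTG. Promoter sequence (RefSeq, GRCm38.p6) was searched in 5 members, and in the 250 bases before the start site an E-box was found once each in Fzd1, Fzd9 and Fzd10 and not in Fzd4 or Fzd7. Fzd2, Fzd3, Fzd6 and Fzd8 were not in the promoter table. The motif reads the same on both strands in this form, and 66.22% of 32851 promoters of that length held it. The sites are shown with the E-box in capitals and 10 bases on each side, on the strand of the gene.
Fzd1: tctcctgccgCATATGggaccattct
Fzd9: ctccgggacaCACGTGggcggccgag
Fzd10: gtgctggaagCAGCTGcgggcgccgg
They lie at chr5:4758322-4758347, chr5:135251120-135251145 and chr5:128600856-128600881, and the motif begins 121, 88 and 240 bases before the RefSeq start. By the GENCODE vM21 gene models, whose starts differ from those of RefSeq, the Fzd9 and Fzd10 sites lie within the noncoding part of their single exon, and the Fzd1 site before the gene. CAGCTG, the form in Fzd10, was in 13% of promoters.

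Fzd5 was the leading Frizzled of colon crypts. Per kilobase (kb) of exon it made up 40.3% to 58.9% of the summed Frizzled level in the 12 groups of crypts (group means), and Fzd1 came second with 8.18% to 22.7%. Fzd5 (chr1:64730558-64737751, 2 exons) is the main Wnt receptor of intestinal Paneth cells, and Fzd1 (chr5:4753839-4758035, 1 exon) signals through beta-catenin. In tumors the order turned. Fzd1 made up 38.3% ± 2.9 (SD, n = 3) of the sum in WT tumors and Fzd5 18%, and in T/T tumors these shares were 36.9% and 16.8%. The summed level was 28.4 to 40.8 CPM per kb in the groups of crypts (means), 51.9 ± 6.04 in WT tumors and 50.9 ± 1.87 in T/T tumors (SD, n = 3). Without replicate 2 the distal Mtg16-/- sum was 34.5 ± 4.94 (SD, n = 3) against 36.9 ± 6.33 (SD, n = 4) with it, and the share of Fzd3 there was 0.165% against 0.939%, that of Fzd2 0.436% against 1.55% and that of Fzd5 49.7% against 51.8%.

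**Figure D1:**
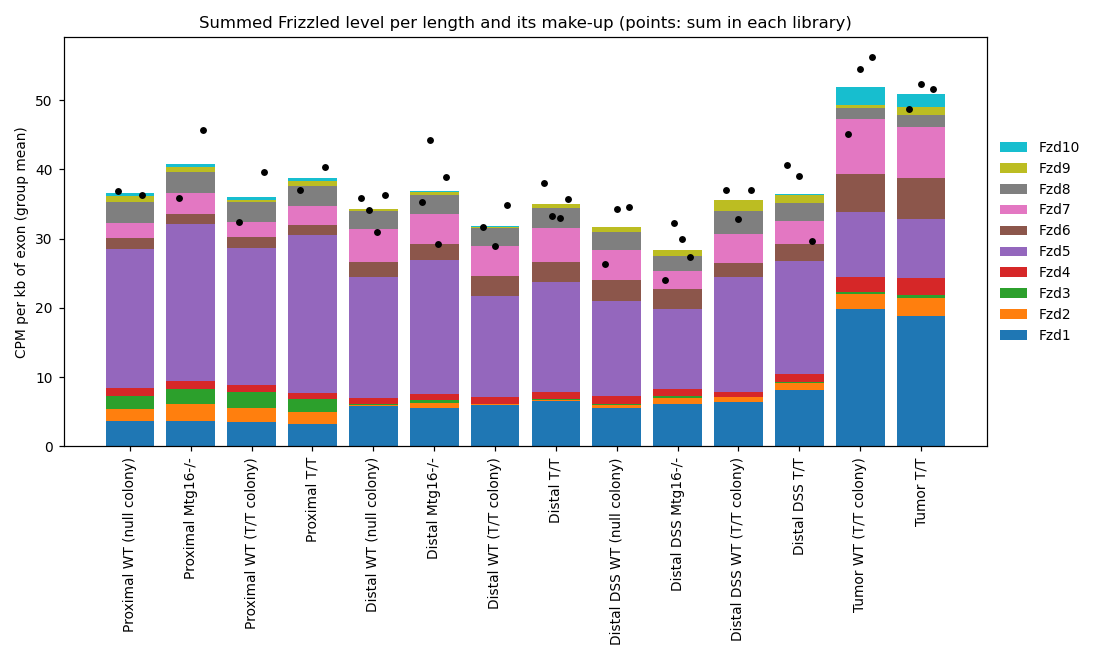
Stacked bars give the mean level of each Frizzled gene (CPM per kb of exon) in the 14 groups, and points the sum in each library. Fzd5 fills the largest part of every crypt bar and Fzd1 the largest part of both tumor bars.

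Across the 8 proximal crypt libraries the median levels per kb were 21.0 for Fzd5, 3.44 for Fzd1, 2.93 for Fzd8, 2.46 for Fzd7, 2.11 for Fzd3, 1.94 for Fzd2, 1.56 for Fzd6 and 0.984 for Fzd4. Fzd9 (0.595) and Fzd10 (0.330) were lowest. The ranges of Fzd1 (2.96 to 4.06) and Fzd8 (2.42 to 3.39), and those of Fzd3 (1.68 to 2.54) and Fzd2 (1.53 to 2.51), overlapped, whereas that of Fzd5 (17.6 to 26.3) stood clear of all other members. In distal crypts Fzd3 dropped from the middle of this order to its end, with 0.0608% and 0.0510% of the Frizzled sum in the WT littermates of both colonies against 5.29% and 6.61% in proximal crypts.

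**Figure D2:**
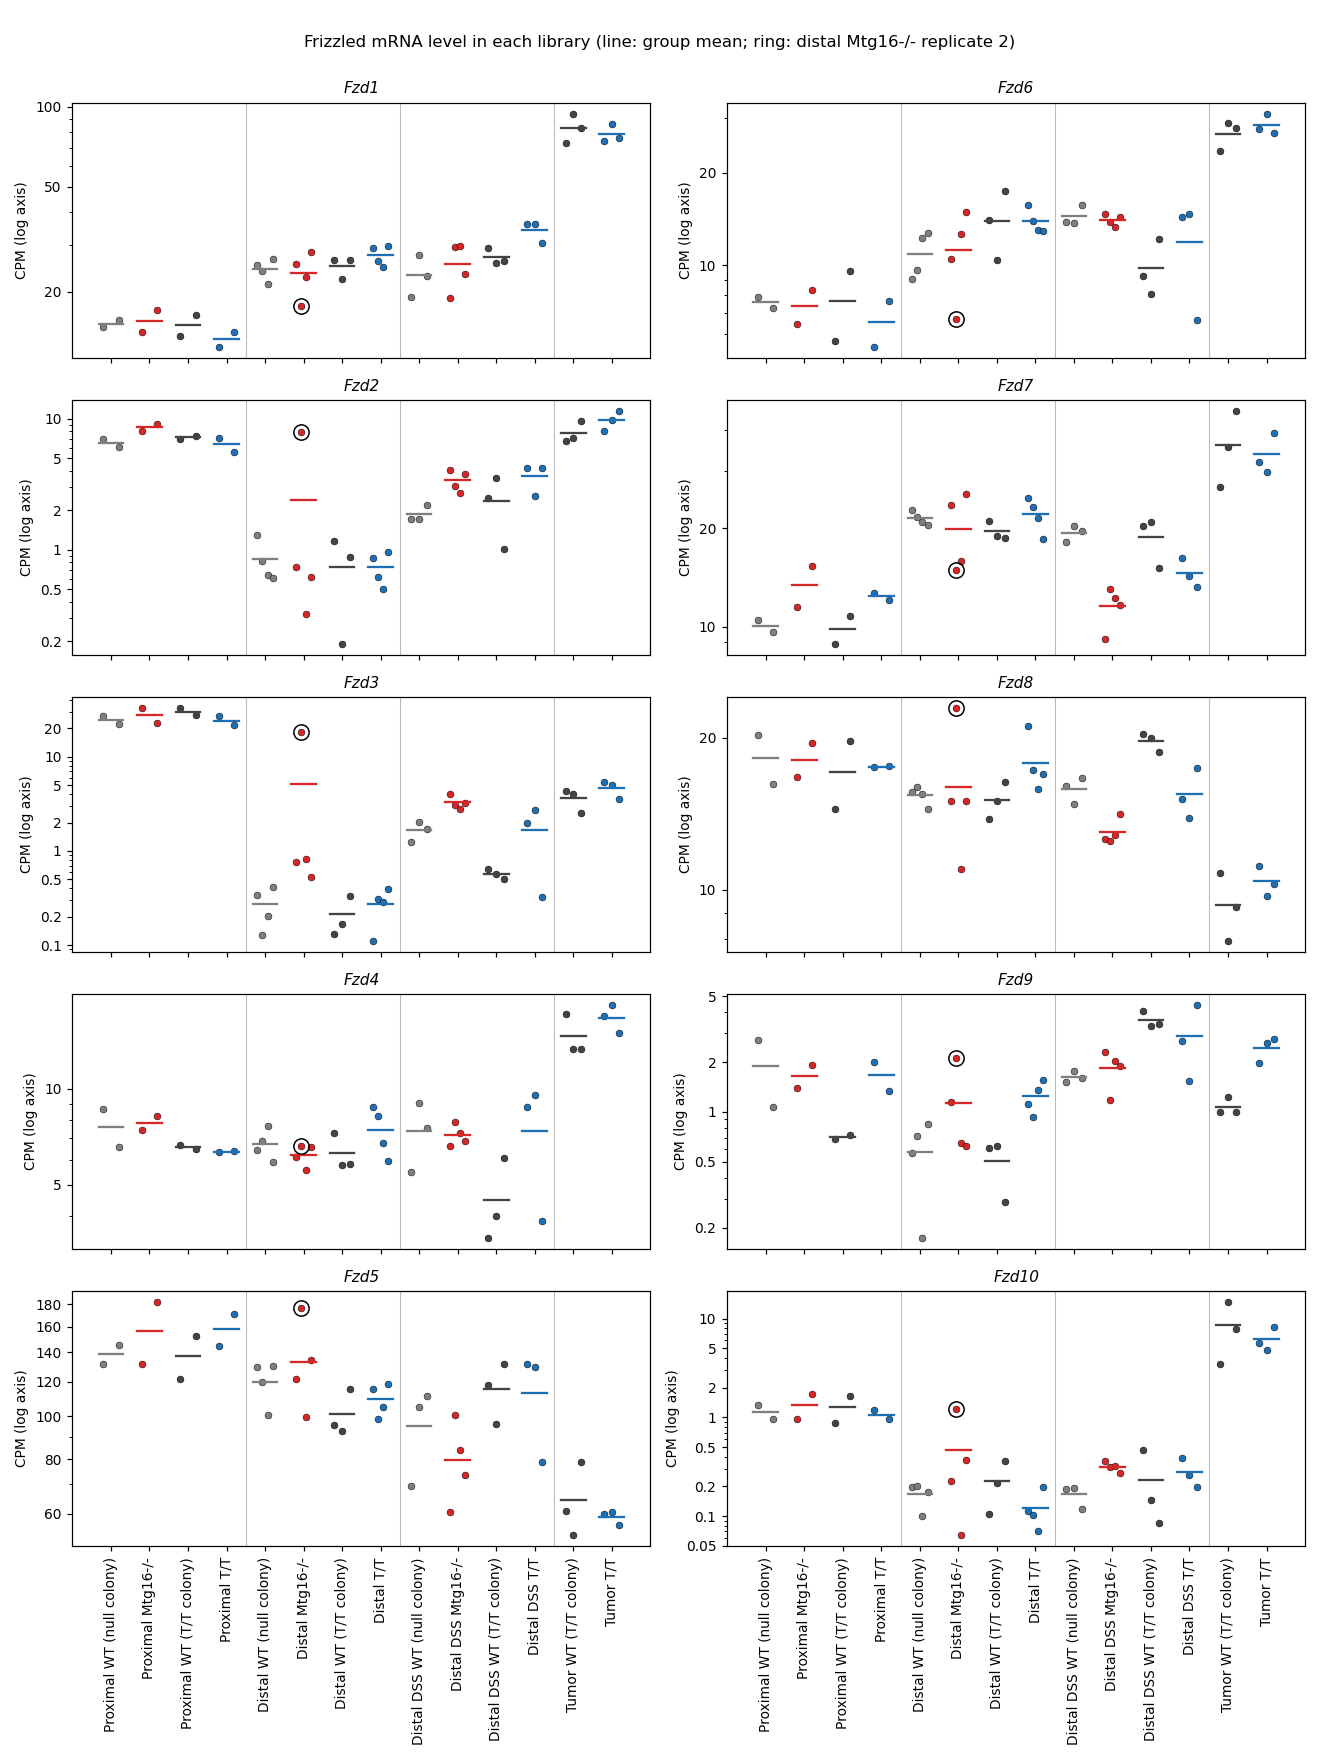
Each point is 1 library, each panel 1 Frizzled gene, the vertical axis its level in CPM (log axis), lines are group means, and a ring marks distal Mtg16-/- replicate 2 (null colony stands for the Mtg16-/- colony). Fzd3, Fzd2 and Fzd10 are low in distal crypts before DSS except in the ringed library (18.5, 7.95 and 1.22 CPM), and Fzd10 is highest in tumors (3.49 to 14.6 CPM).

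The first comparison asked how the members differ between colon segments in WT mice (7 distal and 4 proximal libraries of both colonies). Fzd3, Fzd2, Fzd10 and Fzd5 were lower in distal crypts and Fzd7, Fzd1 and Fzd6 higher, so that 7 of 10 members passed the test (limma on log2 normalized counts plus 1, Benjamini-Hochberg adjusted p under 0.05 over 13841 genes), against 42.1% of all genes (20.1% higher and 22.0% lower). The groups did not overlap for 5 members, Fzd1, Fzd2, Fzd3, Fzd7 and Fzd10, against 30.0% of all genes. The median log2 difference of the members was -0.30 and that of all genes 0.0048.

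Fzd3 (chr14:65192449-65262463, 7 exons), the polarity receptor that guides axons, showed the largest difference. It was at 27.3, 22.2, 32.5 and 27.3 CPM in the 4 proximal WT libraries and at 0.128 to 0.413 CPM (median 0.203) in the 7 distal ones. Every proximal library was far above every distal one. Mean normalized counts of 1248 ± 195 for proximal crypts (SD, n = 4) and 11 ± 5.5 for distal crypts (SD, n = 7) gave a ratio of 113, with a log2 difference of -6.82 (standard error 0.32, adjusted p = 1.44e-09, limma). By exact permutation p was 0.00606 (two-sided), the smallest that 7 against 4 allows. Within prefix 4149, 2 libraries against 2, the log2 difference was -6.30 (adjusted p = 0.000655, limma). Over its 20 alternatives the adjusted p ran from 7.6e-197 to 0.000655.

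Apart from 1 library, Fzd3 was also high in proximal and low in distal mutant crypts. The 4 proximal mutant libraries held 21.6 to 32.5 CPM, and the 7 distal mutant libraries before DSS other than the deviating one held 0.112 to 0.822 CPM. The library labelled distal Mtg16-/- replicate 2 had 18.5 CPM, close to the proximal range.

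Fzd2 (chr11:102604396-102608058, 1 exon), which binds Wnt5a, was at 6.96, 6.09, 7.03 and 7.37 CPM in proximal and at 0.191 to 1.3 CPM (median 0.817) in distal WT crypts. Its ranges stood clear of each other, with a ratio of 8.84 and a log2 difference of -3.29 (standard error 0.39, adjusted p = 1.26e-05, limma). Fzd10 (chr5:128600844-128604093, 1 exon), a receptor for Wnt7b, was low in both segments. It had 0.867 to 1.66 CPM in proximal and 0.102 to 0.362 CPM in distal crypts (log2 difference -2.59, standard error 0.34, adjusted p = 3e-05, limma). Its antisense neighbour Fzd10os shares no exonic base with it and reached at most 0.129 CPM in crypts.

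Fzd7 and Fzd1 ran the other way. Fzd7 (chr1:59482424-59486955, 1 exon), the receptor known from intestinal stem cells, was at 10.5, 9.62, 8.89 and 10.8 CPM in proximal and at 18.7 to 22.8 CPM in distal crypts, 2.02 times higher (log2 difference 1.01, standard error 0.08, adjusted p = 3.01e-07, limma). Fzd1 was at 13.7 to 16.3 CPM in proximal and 21.4 to 26.6 CPM in distal crypts (log2 difference 0.66, standard error 0.09, adjusted p = 5.21e-05, limma). Neither gene had a distal library as low as the highest proximal one, although Fzd1 missed the threshold within prefix 4149 (0.65, adjusted p = 0.0849, limma; 2.62e-10 to 0.0849 over 20 alternatives).

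Fzd6 and Fzd5 passed with overlapping groups. Fzd6 (chr15:39006034-39038188, 7 exons), the other polarity receptor, was 1.56 times higher in distal crypts (log2 difference 0.63, standard error 0.18, adjusted p = 0.011, limma), and with the prefix as a covariate the adjusted p was 0.123, the highest of 20 alternatives from 0.00179 up. Fzd5 was 1.3 times higher in proximal crypts (log2 difference -0.35, adjusted p = 0.0332, limma) and kept its call in 13 of 20 alternatives (adjusted p 0.0121 to 0.432). The call of Fzd5 was lost without proximal WT replicate 2 of either colony (adjusted p = 0.0998 and 0.102) and without distal WT replicate 3 of the Mtg16-/- colony or replicate 1 or 2 of the T/T colony (0.0564 to 0.0597). Fzd9 (chr5:135248938-135251230, 1 exon), known from bone and hippocampus, had a log2 difference of -1.17 (adjusted p = 0.051, limma), Fzd8 -0.24 (0.0534) and Fzd4 (chr7:89404355-89413134, 2 exons), the receptor of norrin in retinal vessels, -0.16 (0.259). Fzd9 was called in 7 of 20 alternatives (adjusted p 0.0140 to 0.190), among them those without distal WT replicate 4 of the Mtg16-/- colony (0.0315) or either proximal WT library of the T/T colony (0.0448 and 0.0456), and Fzd8 in 3 of 20 (0.0141 to 0.316), one of them without proximal WT replicate 1 of the T/T colony (0.0141).

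**Figure D3:**
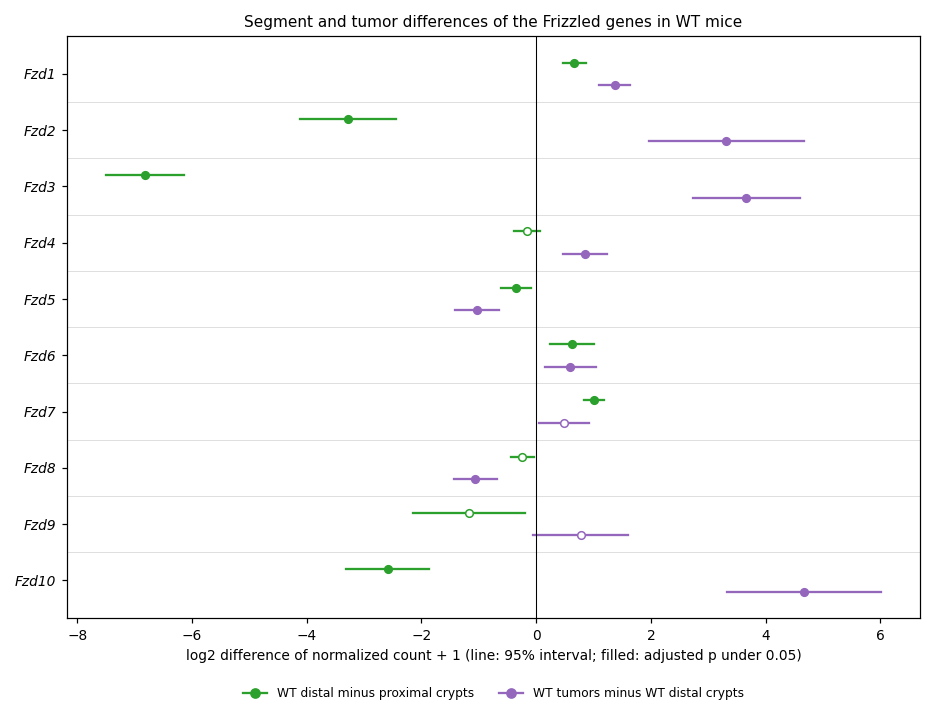
Points are log2 differences of normalized counts plus 1 with 95% intervals, for distal minus proximal crypts and for tumors minus distal crypts of WT mice. Filled points have an adjusted p under 0.05 (limma); Fzd3, Fzd2 and Fzd10 lie far left in the first contrast and far right in the second.

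Other genes of the pathway differed between segments in both directions. Of the 5 Wnt ligands tested among 19 listed, 2 were higher and 3 lower in distal crypts. Wnt5a, the ligand of the noncanonical branch, differed by -6.39 and Wnt11 by -4.25, whereas Wnt8b differed by 5.20 and Wnt6 by 1.62 (log2, limma). Of 6 secreted inhibitors tested, Sfrp1 (-5.05) and Wif1 (-2.38) were lower and Sfrp5 (2.94) and Igfbp4 (1.39) higher. Of 9 coreceptors and other Wnt receptors 5 were higher and 2 lower, led by Ror1 (3.10). Of 4 genes of Frizzled turnover 3 were higher, Lgr4 (0.85), Rnf43 (0.36) and Znrf3 (0.30). Of 15 Wnt target genes 3 were higher and 7 lower, and of 16 intracellular genes 5 were higher and 3 lower. Of 10 planar cell polarity genes 3 were higher and 2 lower. These counts stand against 20.1% of all genes called higher and 22.0% called lower. The summed level of 12 leukocyte markers was 79.5 to 115 CPM in proximal and 21.0 to 57.3 CPM in distal WT crypts, and that of 8 fibroblast markers 22.0 to 28.5 and 10.9 to 17.3 CPM. Endothelial (3.40 to 5.70 and 6.06 to 8.43 CPM), smooth muscle (0.823 to 1.85 and 1.91 to 4.75 CPM) and glial and neuronal markers (0.205 to 0.551 and 1.37 to 2.12 CPM) were higher in distal crypts, and no range overlapped. The 11 markers of crypt lineages, stem, absorptive and secretory cells, summed to 15073 to 18801 CPM in proximal and 5630 to 9123 CPM in distal crypts. The part of these cells in the results was not tested. In bulk samples fewer cells of a type and less RNA per cell cannot be told apart.

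Over the 36 crypt libraries, Fzd3 was most alike in pattern to Abca12 (Pearson r = 0.988 of log2 CPM plus 1, the highest of 12281 genes), Prkg2 (0.985) and Gulp1 (0.979). Fzd2 was most like Pcsk5 (0.965), B4galnt1 (0.959) and Nkain1 (0.958), and Fzd5 most like Rab11fip1 (0.927). Fzd1 was most like Lama5 (0.920), and Fzd7 most like Rab3b (0.901). For Fzd6, Fzd4, Fzd9 and Fzd8 the nearest genes were Gspt2 (0.856), Ywhaq (0.827), Wfs1 (0.824) and Gstm3 (0.788). Among the members, Fzd2 and Fzd3 moved together (0.885), and Fzd1 and Fzd3 apart (-0.803), as did Fzd3 and Fzd7 (-0.782). Without distal Mtg16-/- replicate 2 the nearest gene of each member was the same, at r = 0.988 for Fzd3 and 0.962 for Fzd2, and the member pairs were at 0.878, -0.798 and -0.794. These are descriptions over libraries that share segment, prefix and treatment. Fzd10 had a mean below 1 CPM and was not compared.

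The second question was whether loss or mutation of Mtg16 changed Frizzled levels. No member passed the test in any of the 7 comparisons of mutant with WT (limma), and where reads were recovered edgeR called none and DESeq2 called 3, all in Mtg16-/- crypts after DSS. DESeq2 called 4.78% of all genes there, and the limma fit with the replicate number as a block called 8.78%, Fzd7 among them (adjusted p = 0.00959). Few other genes passed. In proximal crypts 0.0645% of all genes were called for Mtg16-/- and 0.232% for T/T, and in distal crypts 0.239% for Mtg16-/-, which is 1.04% without replicate 2, and 0.0369% for T/T. At an unadjusted p under 0.05 there were 0 members in proximal Mtg16-/- crypts (5.96% of all genes), 1 in distal Mtg16-/- (4.63%), 2 in proximal T/T (12%) and 1 in distal T/T crypts (4.65%). After DSS there were 3 in Mtg16-/- (12.4%) and 0 in T/T crypts (8.77%), and in tumors 1 (2.47%). Fzd10 fell below the filter and was not tested in distal T/T crypts, where its levels were 0.0714 to 0.198 CPM against 0.105 to 0.362 CPM in WT.

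Among the members Fzd9 had the largest log2 difference in proximal and distal crypts of T/T mice, without passing the adjusted test. In proximal crypts it was at 2.01 and 1.34 CPM in T/T and at 0.689 and 0.722 CPM in WT mice (log2 difference 1.20, standard error 0.33, adjusted p = 0.275, limma; exact permutation p = 0.333, the smallest that 2 against 2 allows). In distal crypts it was at 1.12, 0.93, 1.36 and 1.56 CPM in T/T and at 0.605, 0.622 and 0.284 CPM in WT (log2 difference 1.28, standard error 0.34, adjusted p = 0.863, limma; exact permutation p = 0.0571, the smallest that 4 against 3 allows). In both segments all T/T libraries were above all WT libraries of their own colony. WT crypts of the Mtg16-/- colony, which were not part of these tests, held 2.72 and 1.07 CPM in the proximal segment, on both sides of the T/T libraries, and 0.174 to 0.848 CPM in the distal one. By normalized counts the groups did not overlap for 4 members in proximal crypts, against 45.5% of all genes, and for Fzd9 alone of the members tested in distal crypts, against 7.70% of all genes. Over the alternatives the adjusted p of Fzd9 ran from 0.182 to 0.652 and from 0.142 to 0.984. In proximal T/T crypts Fzd7 was also above WT and Fzd3 and Fzd2 below it, by log2 differences of 0.34, -0.31 and -0.18 (adjusted p = 0.412, 0.477 and 0.705, limma), but for Fzd2 the groups overlapped in CPM (5.59 and 7.18 in T/T, 7.03 and 7.37 in WT). In the same proximal crypts summed markers of fibroblasts (24.9 to 35.8 and 22.0 to 22.7 CPM), endothelium (4.72 to 5.88 and 3.40 to 3.84 CPM), glia and neurons (0.503 to 1.19 and 0.361 to 0.422 CPM) and crypt lineages (17076 to 19315 and 15073 to 16232 CPM) were higher in T/T than in WT, and those of leukocytes lower (78.0 to 90.9 and 99.3 to 115 CPM), without overlap. In distal crypts no marker list separated the groups, and the part of these cells was not tested.

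In Mtg16-/- mice without DSS the largest difference belonged to Fzd3 in distal crypts and depended on replicate 2 for its size. Fzd3 was at 0.760, 18.5, 0.822 and 0.533 CPM in Mtg16-/- and at 0.339, 0.128, 0.203 and 0.413 CPM in WT crypts. The 4 mutant libraries were above the 4 WT libraries, as for 2.58% of all genes, while 3.75% did not overlap in either direction. The log2 difference was 2.56 (standard error 1.05, adjusted p = 1, limma), and without replicate 2 it was 1.38 (standard error 0.44, adjusted p = 0.379), where 2 members, Fzd3 and Fzd8, and 6.52% of all genes did not overlap, 4.20% with every mutant library above WT (adjusted p 0.379 to 1 over 17 alternatives). Fzd2 went from 0.36 to -0.60 and Fzd9 from 0.94 to 0.58 without that library, with an adjusted p of 1 in each fit. In these distal crypts no summed marker list separated Mtg16-/- from WT over all libraries. Without replicate 2, crypt lineage markers were at most 6316 CPM in the distal mutants of both colonies, against 6666 to 9123 CPM in WT. Glial and neuronal markers had a median of 2.73 CPM in Mtg16-/- (0.827 in replicate 2, at most 3.14), against 1.43 to 2.00 CPM in WT. In proximal crypts Fzd7 and Fzd2 lay above both WT libraries (log2 differences 0.42 and 0.41, adjusted p = 0.871 for each, limma), where 35.6% of all genes did not overlap. Summed markers of fibroblasts (37.9 to 44.6 and 27.2 to 28.5 CPM), endothelium (5.95 to 6.08 and 3.43 to 5.70 CPM), glia and neurons (0.908 to 1.02 and 0.205 to 0.551 CPM) and epithelium (15637 to 17078 and 13899 to 15035 CPM) were also above WT there, and those of crypt lineages below it (15568 to 16071 and 17992 to 18801 CPM). Their part was not tested.

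**Figure D4:**
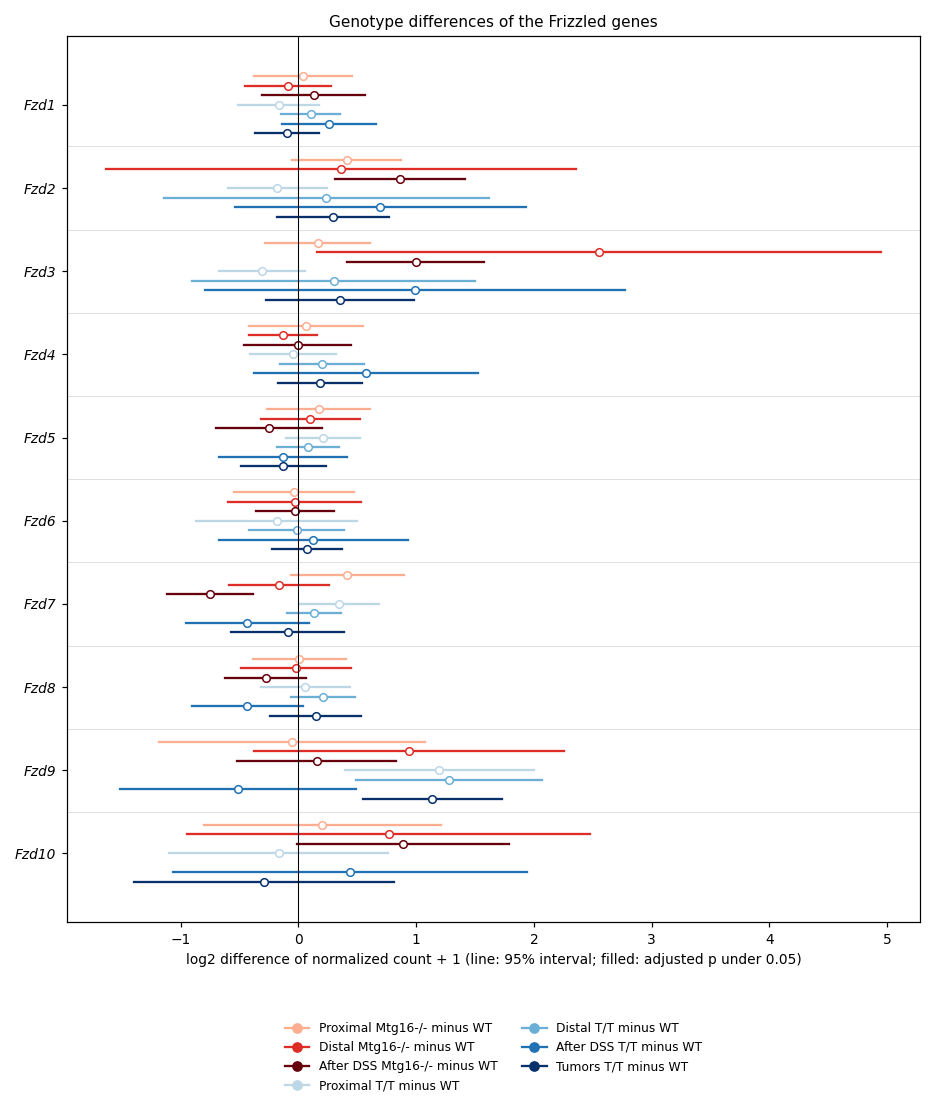
Points are log2 differences of normalized counts plus 1, mutant minus WT, with 95% intervals, for each Frizzled gene in 7 comparisons. No point is filled, so no adjusted p was under 0.05 (limma), and Fzd9 lies right of 0 in proximal crypts, distal crypts and tumors of T/T mice (1.20, 1.28 and 1.14) and left of it after DSS (-0.51).

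After DSS, Fzd7 stood lowest against WT in Mtg16-/- crypts, with a call that depended on the fit. It was at 9.22, 13.1, 12.3 and 11.6 CPM in Mtg16-/- and at 18.1, 20.3 and 19.6 CPM in WT crypts. Every mutant library was below every WT library, and the mean normalized count of WT was 1.67 times that of the mutant. The log2 difference of -0.75 (standard error 0.16) missed the threshold without pairing (adjusted p = 0.0767, limma), whereas 0.629% of all genes were called. Libraries of the same replicate number deviated together here, and with the number as a block the log2 difference was -0.77 (adjusted p = 0.00959, limma), where 8.78% of all genes were called. Over its 13 alternatives the adjusted p ran from 0.000838 (DESeq2) to 0.225.

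Fzd2 and Fzd3, low in distal crypts before DSS, had levels above WT in all Mtg16-/- libraries after DSS. Fzd3 was at 4.02, 3.05, 2.82 and 3.24 CPM in the mutant and at 1.23, 2.03 and 1.72 CPM in WT crypts (log2 difference 1.00, adjusted p = 0.124, limma). Fzd2 was at 4.06, 3.08, 2.70 and 3.79 CPM in the mutant and at 1.70, 1.70 and 2.19 CPM in WT crypts (log2 difference 0.86, adjusted p = 0.159, limma). Both were called by DESeq2 alone among 13 alternatives (adjusted p from 0.00859 to 0.282 for Fzd3 and from 0.0187 to 0.395 for Fzd2). With Fzd10 (0.89) and Fzd8 (-0.28) they and Fzd7 were the 5 members without overlap, against 11.4% of all genes. Summed leukocyte markers were 123 to 369 CPM in these Mtg16-/- libraries and 32.6 to 83.4 CPM in WT, and summed fibroblast markers 37.7 to 136 and 20.7 to 33.6 CPM. Crypt lineage markers (2389 to 3762 and 3828 to 6550.4 CPM) and glial and neuronal markers (0.528 to 1.08 and 1.25 to 1.52 CPM) were lower in Mtg16-/- without overlap. Of 5 genes that differ between segments, chosen after their values were seen, 3 also stood apart. Hoxd13 was at 14.3 to 54.2 CPM in Mtg16-/- and 58.1 to 68.0 CPM in WT, Abca12 at 3.04 to 7.85 and 1.4 to 2.00 CPM and Prap1 at 1.38 to 2.58 and 0.606 to 0.756 CPM, each without overlap, whereas Atp12a (127 to 319 and 306 to 690 CPM) and Hoxb13 (237 to 329 and 299 to 508 CPM) overlapped. The part of these cells and segment genes in the Frizzled differences was not tested.

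In T/T mice after DSS no gene at all was called (limma, 13648 tested, 1197 at an unadjusted p under 0.05, 0 with edgeR and 291 with DESeq2). Of the members, Fzd1 (log2 difference 0.26) and Fzd8 (-0.43) did not overlap, against 13.7% of all genes. Summed leukocyte markers did not overlap either, at 56.7 to 67.8 CPM in T/T and 19.4 to 31.1 CPM in WT, nor did crypt lineage markers (2227 to 4385 and 5010 to 7392 CPM) and glial and neuronal markers (0.549 to 1.57 and 1.59 to 2.04 CPM). Their part was not tested. Fzd9 was at 2.68, 1.54 and 4.39 CPM in T/T and at 4.07, 3.28 and 3.37 CPM in WT crypts, overlapping groups with a log2 difference of -0.51 (adjusted p = 0.755, limma).

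The third question was what DSS did to distal crypts, with baseline and DSS libraries of each kind of mouse compared separately. Fzd3, Fzd2 and Fzd9, low members before DSS, were each called higher in some kinds of mice and not in others. In WT mice of the T/T colony 3 of 10 members were called, all higher, against 35.6% of all genes (14.0% higher), and 3 did not overlap, against 55.3%. In WT mice of the Mtg16-/- colony 1 of 9 members tested was called, against 5.26% (4.01% higher), and 5 did not overlap, against 20.0%. In T/T mice it was 1 of 9, against 4.05% (2.46% higher), with 3 that did not overlap, against 21.0%. In Mtg16-/- mice 2 of 10 were called, both lower, against 24.8% (10.7% lower), and 5 of 10 without replicate 2, against 31.1%. There Fzd4 and Fzd7 did not overlap over all libraries, against 29.6% of all genes, and Fzd2 and Fzd3 joined them without replicate 2, 4 members against 41.4%. Summed fibroblast markers were higher after DSS without overlap in WT mice of the Mtg16-/- colony (10.9 to 16.8 and 20.7 to 33.6 CPM), WT mice of the T/T colony (11.4 to 17.3 and 19.2 to 29.2 CPM) and Mtg16-/- mice (16.5 to 27.4 and 37.7 to 136 CPM), and with overlap in T/T mice (13.1 to 42.3 and 21.0 to 40.0 CPM). Summed leukocyte markers went from 35.5 to 81.1 CPM to 123 to 369 CPM in Mtg16-/- mice and overlapped in the other kinds of mice, although Ptprc, on that list, went from 9.08 to 17.6 CPM to 0.293 to 1.89 CPM in WT mice of the T/T colony. Crypt lineage markers were lower after DSS without overlap in WT mice of the Mtg16-/- colony (6666 to 9123 and 3828 to 6550.4 CPM), Mtg16-/- mice (5097 to 15106 and 2389 to 3762 CPM) and T/T mice (5351 to 6316 and 2227 to 4385 CPM). Epithelial markers were higher without overlap in WT mice of the T/T colony (15965 to 17254.5 and 18452 to 25189 CPM). Glial and neuronal markers were lower without overlap in T/T mice (1.80 to 2.14 and 0.549 to 1.57 CPM). In Mtg16-/- mice, distal replicate 2 held the highest baseline sums of fibroblast, leukocyte and crypt lineage markers (27.4, 81.1 and 15106 CPM). The other distal baseline libraries of both mutants held crypt lineage markers at 5097 to 6316 CPM. Glial and neuronal markers overlapped in Mtg16-/- mice (0.827 to 3.14 and 0.528 to 1.08 CPM) through replicate 2. The other distal baseline mutants held at least 1.80 CPM. The part of these cells in the Frizzled differences was not tested.

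Fzd9 rose most in WT mice of the T/T colony. It was at 0.605, 0.622 and 0.284 CPM at baseline and at 4.07, 3.28 and 3.37 CPM after DSS, 7.35 times higher. The ranges stood far apart (log2 difference 2.89, standard error 0.34, adjusted p = 0.00803, limma). Leaving out baseline replicate 2 raised the adjusted p to 0.0534, the highest of 12 alternatives (from 5.64e-16), and left 1 gene of the whole table called in place of 4833. In WT mice of the Mtg16-/- colony Fzd9 was at 0.174 to 0.848 CPM at baseline and at 1.51, 1.75 and 1.60 CPM after DSS (log2 difference 1.66, adjusted p = 0.0881, limma; 0.00293 to 0.223 over 13 alternatives). In T/T mice, whose baseline libraries lay above WT without passing the adjusted test, the log2 difference was 1.14 (adjusted p = 0.15, limma). Without DSS replicate 2 it was 1.53 (0.0410, with 0.0379 to 0.340 over 13 alternatives). In Mtg16-/- mice it was 0.89 (0.15), or 1.24 without baseline replicate 2 (0.0226; 0.0226 to 0.316 over 14 alternatives).

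Fzd3 rose in both sets of WT mice. In the Mtg16-/- colony it went from 0.339, 0.128, 0.203 and 0.413 CPM to 1.23, 2.03 and 1.72 CPM, 6.05 times higher by normalized counts (log2 difference 2.62, standard error 0.43, adjusted p = 0.00435, limma), and it was called in 13 of 13 alternatives. In the T/T colony it went from 0.132, 0.167 and 0.336 CPM to 0.643, 0.564 and 0.498 CPM (log2 difference 1.48, standard error 0.40, adjusted p = 0.0319, limma), and was called in 7 of 12 alternatives. The call was lost without DSS replicate 1 or 2 or baseline replicate 1 or 2 (adjusted p 0.0884 to 0.119). In T/T mice its libraries after DSS were at 1.97, 2.70 and 0.325 CPM, the last within the baseline range of 0.112 to 0.395 CPM (log2 difference 2.20, adjusted p = 0.141). Without that library the difference was 3.09 (adjusted p = 0.0408, limma; 0.00393 to 0.347 over 13 alternatives). In Mtg16-/- mice the value rested on replicate 2, with a log2 difference of 1.07 (adjusted p = 0.424; -0.60 with edgeR and with DESeq2) over all libraries and 2.24 (standard error 0.27, adjusted p = 0.000182, limma; 0.000182 to 0.705 over 14 alternatives) without it.

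Fzd2 rose in T/T mice, from 0.871, 0.620, 0.500 and 0.963 CPM to 4.21, 2.55 and 4.19 CPM. All DSS libraries were above all baseline libraries, 5.10 times by mean normalized count (log2 difference 2.32, standard error 0.33, adjusted p = 0.0134, limma), and 10 of 13 alternatives kept the call (adjusted p 2.53e-08 to 0.0898), which was lost without DSS replicate 1 (0.0898) or baseline replicate 2 (0.0509). In the other mice it was not called over all libraries, with log2 differences of 1.83 (adjusted p = 0.0966, WT of the T/T colony), 1.18 (0.064, WT of the Mtg16-/- colony) and 1.70 (0.151, Mtg16-/-). Without replicate 2 the Mtg16-/- difference was 2.66 (adjusted p = 0.000263, limma; 0.000263 to 0.658 over 14 alternatives). Among WT mice Fzd2 was called without DSS replicate 3 of the T/T colony (2.35, adjusted p = 0.0117; 0.0117 to 0.249 over 12 alternatives) or baseline replicate 1 of the Mtg16-/- colony (1.41, 0.0330; 0.0140 to 0.154 over 13).

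**Figure D5:**
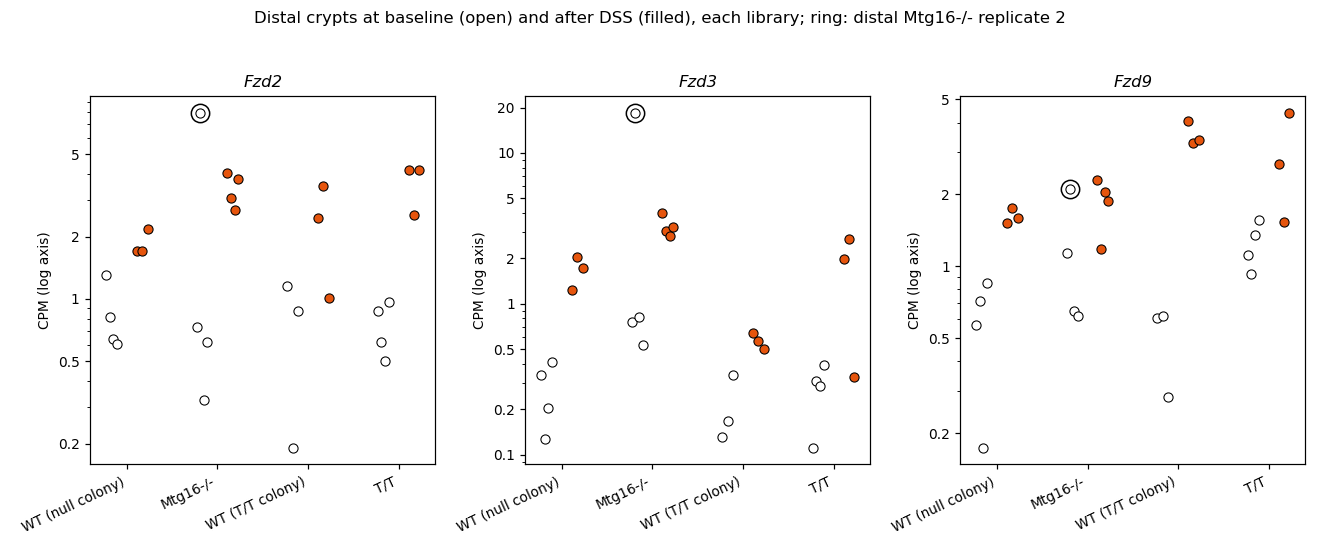
Each point is 1 distal crypt library, open at baseline and filled after DSS, the vertical axis the level in CPM (log axis), for Fzd2, Fzd3 and Fzd9 in the 4 kinds of mice, and the ring marks distal Mtg16-/- replicate 2. Apart from the ringed library, which lies above the DSS libraries for Fzd2 and Fzd3 (7.95 and 18.5 CPM), baseline points sit low and DSS points higher, with overlap in some groups.

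Some more abundant members moved less. Fzd7 and Fzd5 fell in Mtg16-/- mice by 0.72 and 0.69 on the log2 scale (standard errors 0.21 and 0.19, adjusted p = 0.0336 and 0.0305, limma), and without replicate 2 by 0.84 and 0.54 (0.0102 and 0.0339). Fzd7 was at 23.5, 15, 16.0 and 25.4 CPM before DSS and at 9.22 to 13.1 CPM after it, without overlap. These calls held in 8 and 9 of 14 alternatives and were lost without DSS replicate 1, 3 or 4 or baseline replicate 1 or 4 (adjusted p 0.0609 to 0.0975 for Fzd7 and 0.0556 to 0.0840 for Fzd5). Fzd7 had a log2 difference of -0.55 in T/T mice (adjusted p = 0.109) and of -0.16 and -0.03 in the WT littermates of the Mtg16-/- and T/T colonies (0.518 and 0.915). Fzd8, a single-exon receptor, rose in WT mice of the T/T colony from 13.8, 15 and 16.3 CPM to 20.4, 20.0 and 18.7 CPM (log2 difference 0.44, adjusted p = 0.0487, limma), a call that held in 5 of 12 alternatives and was lost without any library but DSS replicate 3 (adjusted p 0.0810 to 0.173). Fzd1, Fzd4 and Fzd6 were not called in any of the 4 comparisons over all libraries, and Fzd10 in neither of the 2 that tested it, Mtg16-/- mice and WT mice of the T/T colony. Without DSS replicate 3, Fzd4 (-0.69, adjusted p = 0.00906) and Fzd6 (-0.60, 0.0339) were called lower in WT mice of the T/T colony (0.00906 to 0.438 and 0.0339 to 0.439 over 12 alternatives).

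The 2 colonies differed in another respect after DSS. Krt5, a keratin of squamous epithelium, was at 104 to 340 CPM in the 7 libraries of the Mtg16-/- colony and at 0.0687 to 0.289 CPM in the 6 of the T/T colony, and at most 0.160 CPM in baseline crypts. These squamous genes were chosen after their values were seen. In the same colony Wnt7b and Wnt10a, ligands of squamous epithelium, were called higher after DSS in WT (log2 differences 6.92 and 6.35) and Mtg16-/- mice (7.03 and 7.07), as were Wnt4 and Wnt9a, whereas no Wnt ligand was called in either comparison of the T/T colony. Fzd10, a receptor for Wnt7b, stayed at 0.118 to 0.359 CPM there. The DSS libraries of the Mtg16-/- and T/T colonies carry different prefixes, 6217 and 5740, so that colony and prefix cannot be told apart. Krt5 was also present in tumors of the T/T colony, at 0.349 to 246 CPM in WT and 0.255 to 243 CPM in T/T mice. The part of squamous cells in the Frizzled levels was not tested. In the T/T colony after DSS 2 of the 5 segment genes overlapped between T/T and WT, Hoxd13 (17.4 to 49.0 and 35.0 to 77.0 CPM) and Abca12 (0.470 to 5.02 and 0.326 to 0.836 CPM). The other 3 did not overlap, with Prap1 higher in T/T (1.57 to 2.50 and 0.884 to 1.4 CPM) and Hoxb13 (at most 369 and at least 433 CPM) and Atp12a (141 to 434 and 550 to 1233 CPM) lower. In the 14 baseline libraries other than distal Mtg16-/- replicate 2, Hoxd13 was at 74.6 to 149 CPM and Abca12 at 0.024 to 1.41 CPM.

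The fourth comparison set whole WT tumors against distal WT crypts of the same colony (3 against 3). Fzd10, Fzd3, Fzd2, Fzd1, Fzd4 and Fzd6 were higher in tumors and Fzd8 and Fzd5 lower, 8 of 10 members called against 64.0% of all genes (35.0% higher and 29.0% lower, limma, 15263 tested). No member overlapped between the groups, against 70.5% of all genes. Whether these shares differ from those of all genes was not tested. The median log2 difference was 0.81 for the members and 0.07 for all genes. Of all genes 5339 were called higher and 4426 lower. Scaled by total count, a choice added after seeing the data, these were 7957 and 2485, the median of all genes was 0.44, and all 10 members were called, 8 higher and 2 lower. An exact permutation test of 3 against 3 cannot go below p = 0.1, and each member reached it.

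Fzd10 showed the largest difference. It was at 0.105, 0.215 and 0.362 CPM in crypts and at 3.49, 14.6 and 7.76 CPM in tumors, 29.0 times higher by normalized counts (log2 difference 4.67, standard error 0.58, adjusted p = 0.000187, limma). The tumors varied among themselves, yet each was far above every crypt library. Fzd10os was at 0.350 to 0.992 CPM in tumors. Fzd3 was at 4.34, 4.00 and 2.51 CPM in tumors, 13.1 times its level in crypts (log2 difference 3.66, adjusted p = 8.65e-05, limma), and Fzd2 was at 6.81, 7.16 and 9.59 CPM, 8.26 times higher (3.31, adjusted p = 0.00135, limma). For Fzd3 the tumors stayed below the proximal crypts (22.2 to 32.5 CPM in WT), whereas for Fzd2 they reached that range (6.09 to 7.37 CPM), levels of tables scaled apart and given side by side.

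Fzd1 was at 73.1, 93.7 and 83.3 CPM in WT tumors and at 26.4, 22.3 and 26.3 CPM in crypts (log2 difference 1.37, standard error 0.12, adjusted p = 2.45e-05, limma), the gain that put it first in the family. Fzd5 fell from 95.7, 92.8 and 115 CPM in crypts to 60.8, 53.8 and 78.8 CPM (log2 difference -1.03, adjusted p = 0.000765, limma) and Fzd8 from 13.8, 15 and 16.3 CPM to 10.8, 7.93 and 9.25 CPM (-1.06, adjusted p = 0.000606, limma). By mean normalized counts crypts held 2.02 times the Fzd5 and 2.08 times the Fzd8 of tumors. Scaled by total count, Fzd5 and Fzd8 fell by 0.66 and 0.70 on the log2 scale and Fzd1 rose by 1.73. Fzd4 (0.85, adjusted p = 0.00223) and Fzd6 (0.60, adjusted p = 0.0274) rose less, and Fzd6 kept its call in 9 of 13 alternatives, losing it without tumor replicate 2 or 3 or crypt replicate 1 or 2 (adjusted p 0.0786 to 0.116). Fzd7 (0.48, adjusted p = 0.0542) and Fzd9 (0.77, adjusted p = 0.0906) were not called, but were when scaled by total count (0.84, adjusted p = 0.00390, and 1.13, adjusted p = 0.0232, limma; 0.00390 to 0.140 and 0.0232 to 0.274 over 13 alternatives). Fzd7 was also called without tumor replicate 1 (0.68, adjusted p = 0.00544).

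The 2 tissues were prepared differently, tumors whole and crypts freed by chelation. The 8 fibroblast markers summed to 3136 to 4251 CPM in WT tumors and to 11.4 to 17.3 CPM in the crypts, and all 8 were called higher, as were 6 of 6 smooth muscle and 6 of 6 endothelial markers and 9 of 12 leukocyte markers. Of 8 epithelial markers 7 were called lower. Krt5, the keratin of squamous epithelium, was at 0.349 to 246 CPM in WT tumors and at 0 in the crypts. How far these cells carry the Frizzled differences was not tested. Among the partners of the receptors, 13 of 14 Wnt ligands tested were higher and 1 lower, led by Wnt5a (10.70) and Wnt10a (10.17), and 10 of 12 secreted inhibitors were higher, led by Dkk2 (11.61) and Notum (11.28). Of 17 Wnt targets 16 were higher, among them Nkd1 (10.35) and Tnfrsf19 (8.45), as were 5 of 6 turnover genes, with Lgr6 (8.35), Rspo3 (5.90) and Lgr5 (3.66). Of 11 polarity genes 9 were higher. Of 9 coreceptors 4 were higher and 2 lower, and of 17 intracellular genes 7 were higher and 2 lower, against 35.0% and 29.0% of all genes.

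In tumors of T/T against WT mice no gene was called (limma, 15900 tested, 392 at an unadjusted p under 0.05, 0 with edgeR and 25 with DESeq2). In this comparison the paper reported Fzd9, by DESeq2, as its only differentially expressed gene related to Wnt signaling, a call that no fit here repeated. Fzd9 was the only member without overlap, against 5.52% of all genes. It was at 1.96, 2.59 and 2.75 CPM in T/T and at 0.998, 1.23 and 0.993 CPM in WT tumors. The 3 T/T tumors were above the 3 WT tumors, with mean normalized counts of 117 ± 19.3 and 52.4 ± 5.77 (SD, n = 3 each), a ratio of 2.24. The log2 difference was 1.14 (standard error 0.25, unadjusted p = 0.00221, adjusted p = 0.998, limma), the exact permutation test gave p = 0.1, the smallest that 3 against 3 allows, and no alternative of 12 called it (adjusted p from 0.0997 with DESeq2 to 1). The other 9 members had log2 differences between -0.29 (Fzd10) and 0.35 (Fzd3), each with an adjusted p of 0.998.

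Whether the responses differed between mice was tested by interaction terms, and no member was called in any of the 4. The DSS response of Fzd9 differed between T/T and WT mice by -1.81 (standard error 0.55, unadjusted p = 0.00686, adjusted p = 0.264, limma), that of Fzd8 by -0.65 (adjusted p = 0.32) and that of Fzd7 by -0.58 (0.41), where 0.204% of all genes were called. Between Mtg16-/- and WT mice the DSS response of Fzd7 differed by -0.57 (standard error 0.25, adjusted p = 1, limma), and without replicate 2 by -0.69 (adjusted p = 0.408; 0.408 to 1 over 5 alternatives). That of Fzd2 differed by 0.51 and, without this library, by 1.48 (adjusted p = 1 and 0.349; 0.349 to 1 over 5 alternatives). No gene was called there by limma or edgeR (523 and 557 at an unadjusted p under 0.05), and 0.111% without the library. The effect of T/T on Fzd9 differed by 0.11 between distal and proximal crypts (standard error 0.51, adjusted p = 0.986, limma), where 0.0145% of all genes were called. The effect of Mtg16-/- on Fzd3 differed by 2.40 between the segments and by 1.22 without replicate 2 (adjusted p = 1 in both), and on Fzd7 by -0.59 and -0.46. No gene was called in that interaction by limma (352 at an unadjusted p under 0.05), and 0.0214% without the library.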

How the data were processed

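RNA of 42 crypt and tumor libraries was sequenced. Per the labels, the authors trimmed reads with fastp 0.20.0, quantified them with Salmon 1.3.0 on the mm10 build (GENCODE transcripts) and scaled gene counts by size factors in DESeq2 1.26.0 (R 3.6.3). The deposited values in 9 tables are these normalized counts, a signal per gene, beside the authors' own fold changes and p-values, which were not used. Recovered reads were identical in the 16 repeats of a library that could be compared (5 pairs of tables).

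Whole reads were recovered for 38 of 42 libraries (100.0% of values whole within 0.1 reads). The 4 proximal mutant libraries kept their normalized totals of 44178091 to 49481757. CPM is a value over its column total, and exon length is the merged length in GENCODE vM21. The main test was limma 3.58.1 (R 4.3.3, trend) on log2(normalized count + 1) with a mean of at least 10, Benjamini-Hochberg adjusted at 0.05 over all genes, and fold changes are on that scale, which understates low genes. Comparisons across tables used recovered reads scaled by TMM. The alternatives were edgeR 4.0.16 and DESeq2 1.42.0 (recovered reads), a pseudocount of 0.1, no filter, other scaling, a replicate block, each library left out, library code and colony. Scaling by total count, and the interactions without distal Mtg16-/- replicate 2, were chosen after seeing the data. The procedure was tested on simulated data. Named genes were the 10 members, up to 4 called genes per pathway list with the largest change, and the 3 genes most like a member. The members and lists were chosen with earlier results of these data known. Replicate numbers were taken to pair libraries only after DSS in the Mtg16-/- colony, where the 3 pairs correlated at 0.554, 0.460 and 0.317, a hint from the data, since the meaning of a number is not in the labels. Strand-specific counting was not given in the sources used here. The promoter of 1 member is not reported here.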

Additional observations from a re-analysis of the deposited data

Results flagged for a closer look

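In the library labelled distal Mtg16-/- replicate 2, Fzd2 was at 7.95 CPM against 0.324 to 0.735 CPM in the other 3 libraries of its group, and the gap to the nearest was 0.946 of the whole range. In the same library Fzd3 was at 18.5 CPM against 0.533 to 0.822 CPM, with a gap of 0.984 of the range. Both passed Dixon's 95% critical value for 4 libraries. Of 40 tests, 10 members in each of the 4 groups of 4 libraries, these 2 passed, both in the same library, and chance passes about 1 in 20. This library also resembled proximal crypts across all genes and lacked Hoxd13, as given above, and whether the label or the tissue differed was not tested.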

How the results depend on the processing

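Of 334 alternative fits of called members none turned direction, 293 kept the call and 41 lost it; of 1455 fits of uncalled members 80 had the opposite sign. The count of called members moved by at most 1.5 times in 160 of 184 alternatives, where a count of 0 that stayed 0 counted as unmoved. Most comparisons called no member, so this share says little of those that did. After DSS in Mtg16-/- against WT it went from 0 to 1 with the replicate block and to 3 with DESeq2. For DSS against baseline it went from 3 to 1 with the block in WT mice of the T/T colony, from 1 to 2 with the block and 3 with DESeq2 in WT mice of the Mtg16-/- colony, from 2 to 1 with the block in Mtg16-/- mice, and from 1 to 0 with the block and 4 with DESeq2 in T/T mice. With each library left out in turn the counts were 6 to 9 between WT segments, 0 to 6, 1 to 2, 0 to 5 and 0 to 2 in those 4 DSS comparisons, 7 to 9 for WT tumors, and 0 in the 7 comparisons of mutant with WT. Of the interactions, the 2 with Mtg16-/- were refitted without distal Mtg16-/- replicate 2 alone, with 0 members called. In Mtg16-/- mice the DSS difference of Fzd3, 1.07, was -0.60 with edgeR and -0.60 with DESeq2, where the mean is carried by baseline replicate 2. Of the comparisons of samples by number, only that after DSS in the Mtg16-/- colony was treated as paired, and elsewhere the block is given as counts alone.

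Counts over all genes moved more. Between WT segments 5824 genes became 3189 with the library code as a covariate and 2014 within code 4149. With the block, 9 became 32 (proximal Mtg16-/-), 33 became 1 (distal Mtg16-/-), 32 became 151 (proximal T/T), 5 became 0 (distal T/T), 91 became 1271 (Mtg16-/- after DSS), 4833 became 2679 (WT of the T/T colony, DSS), 740 became 1179 (WT of the Mtg16-/- colony, DSS) and 555 became 90 (T/T, DSS). With DESeq2 the counts were 220 (distal Mtg16-/-), 52 (distal T/T), 776 and 291 (Mtg16-/- and T/T after DSS), 25 (T/T tumors), 1480 and 1353 (DSS in WT of the Mtg16-/- colony and T/T). In distal Mtg16-/- crypts 8 were called with the code as a covariate, 2 within code 4149, 0 within 5094 and 143 without replicate 2. Without a filter 32 became 2 (proximal T/T) and 0 became 1 (T/T tumors). Leaving out 1 library gave 1 (baseline replicate 2) to 9086 genes (DSS replicate 3) for DSS in WT of the T/T colony (4833), 395 (DSS replicate 1) to 1210 (DSS replicate 2) in WT of the Mtg16-/- colony (740), 53 (DSS replicate 1) to 1206 (DSS replicate 2) in T/T (555) and 1687 (DSS replicate 4) to 4913 in Mtg16-/- mice (3601). For mutant against WT it gave 28 (mutant replicate 3) to 106 for Mtg16-/- after DSS (91), 6 to 22 (WT replicate 2) for proximal Mtg16-/- (9), 0 (WT replicate 1) to 27 for proximal T/T (32), 2 to 143 for distal Mtg16-/- (33), 0 to 8 for distal T/T (5), 0 to 3 for T/T after DSS (0) and 0 to 1 for T/T tumors (0). The interaction of T/T with DSS went from 28 genes to 10 without a filter, 10 with median-ratio scaling and 2 with edgeR, and the share called higher from 21.4% to 40.0% with that scaling. The cause of these changes was not tested. Fzd2, Fzd3, Fzd9 and Fzd10 rest on few reads in distal crypts before DSS, which limits the precision of their differences.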
